A study of Mus musculus with 30 samples.

Results

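Chemokine transcripts were followed in a primary mouse tail fibroblast line treated with 1 of 8 small molecules or with the solvent DMSO. The genes are 10 chemokines, taken by symbol. Ccl20, Ccl2, Ccl7, Cxcl1, Cxcl2 and Cxcl5 are grouped as NF-kB-driven, after their best known inducer. Ccl5, Cxcl10 and Cxcl11 are grouped as interferon-driven, though Ccl5 also responds to NF-kB. Cxcl12 is made constitutively by fibroblasts. All 10 were found among the 29861 genes of the deposited table. The set was drawn up with earlier results of these data known, and Ccl20 was chosen by its TPM (transcripts per 1000000, a level scaled by transcript length), which was lower than DMSO with all 8 compounds, so its comparison with DMSO is given as a description without a test, and every count below is over the other 9 genes. The assignment of each gene to an inducer is textbook knowledge and was not measured here.

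The line, CCG-HTA-1, came from tail skin of UMHet3 mice, a genetically mixed stock, and was used at passage 4. Donor age is labelled 5-8 weeks for every library except Dihydrorotenone replicate 1, labelled 8-11 weeks. Cells were kept in high-glucose medium lacking pyruvate, at ambient oxygen and 10% CO2, and were harvested after 48 hours. The 9 groups were DMSO with 6 libraries and, with 3 libraries each, Antimycin A and Dihydrorotenone (which block electron transport in mitochondria), Diphenyleneiodonium Cl (which blocks flavoenzymes such as NADPH oxidases), Cardamonin (a chalcone found in plants), a compound labelled BerberineA, Clofilium tosylate (a blocker of potassium channels), AEG 3482, and Podofilox (which blocks tubulin assembly). The series text counts fewer DMSO samples than the labels do, and all 6 labelled DMSO libraries were used. Doses are not given in the labels, so groups, not matched doses, are compared throughout. All libraries come from a single line, so p-values measure only the spread between these samples, which may be technical. Library numbers run consecutively within each group, so that library order and treatment cannot be told apart.

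Chemokines are small secreted proteins that steer leukocytes along concentration gradients through receptors coupled to G proteins. Activated fibroblasts are a major tissue source of them. Signals from interleukin-1, tumour necrosis factor or Toll-like receptors free NF-kB from its inhibitor IkB, and NF-kB then enters the nucleus and switches on chemokines that draw neutrophils (Cxcl1, Cxcl2, Cxcl5), monocytes (Ccl2, Ccl7) or cells carrying the receptor Ccr6 (Ccl20). Interferons act through Jak kinases and raise Cxcl10 and Cxcl11, ligands of the T cell receptor for chemokines Cxcr3, while Ccl5 responds to interferon regulatory factors as well as to NF-kB. Cxcl12, the ligand of Cxcr4 and Ackr3, retains progenitor cells in their niches and is made without stimulation by many stromal cells.

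The libraries looked like fibroblasts. All 10 fibroblast markers tested (Col1a1, Pdgfra, Dcn and others) were present, with a summed level of 6163 to 16830 TPM, lowest in the Cardamonin libraries (6163 to 8029 TPM). Of the markers of other cells, 2 of 7 for T cells (Cd4, Lck), 2 of 6 for endothelium (Tek, Vwf), 1 of 7 for keratinocytes (Krt10) and 0 of 6 for muscle reached 1 TPM in any library. The highest of these were Tek at up to 8.18 TPM, Lck at up to 3.31 TPM and Krt10 at up to 2.38 TPM, while Cd3e was at most 0.03 TPM and Krt5 and Myod1 were listed at 0 throughout. Of 10 macrophage markers, 7 reached 1 TPM in some library, summing to 196 to 257 TPM in DMSO and 102 to 220 TPM with compounds. Lyz2 (35.6 to 180 TPM), Cd14 (30.2 to 118 TPM), Cd68 (11.5 to 41.4 TPM), Adgre1 (1.62 to 12.1 TPM) and Csf1r (0.70 to 3.46 TPM) were the highest by median. C1qa reached 1.69 TPM and Tyrobp 5.93 TPM, with Tyrobp listed at 0 in 11 libraries. Ptprc, Itgam and Fcgr1 stayed at or below 0.89 TPM. The part of such cells in the results was not tested. TPM carries no depth, so depth is unknown, and fewer cells making a transcript cannot be told apart from less of it per cell.

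The genes lie on 4 chromosomes (GRCm38 positions from GENCODE M21). Cxcl5 (ENSMUSG00000029371, chr5:90759360-90761624), Cxcl1 (ENSMUSG00000029380, chr5:90891241-90893115) and Cxcl2 (ENSMUSG00000058427, chr5:90903871-90905938) lie in a chemokine cluster on the plus strand. Cxcl10 (ENSMUSG00000034855, chr5:92346638-92348889) and Cxcl11 (ENSMUSG00000060183, chr5:92359544-92365485) lie further along the same chromosome on the minus strand. Ccl2 (ENSMUSG00000035385, chr11:82035571-82037453) and Ccl7 (ENSMUSG00000035373, chr11:82045712-82047525) are neighbours on the plus strand, with Ccl5 (ENSMUSG00000035042, chr11:83525778-83530518) on the minus strand. Ccl20 (ENSMUSG00000026166) is at chr1:83116766-83119167 and Cxcl12 (ENSMUSG00000061353) at chr6:117168535-117181367, both on the plus strand. Cxcl11 is annotated as a polymorphic pseudogene, and 42.2% of its 31-base words also occur in other genes, 40.9% in the processed pseudogene Gm2673, which lies over it on the opposite strand and was listed at 0.21 TPM or less. For Cxcl2 the shared portion was 7.59% (Cxcl3) and for Cxcl10 4.47% (Art3, on the opposite strand, at 0.096 to 3.85 TPM). Whether the libraries kept strand is not given in the sources used here, so reads of overlapping genes on opposite strands cannot be told apart, and the Cxcl11 values are the least certain of the set.

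The 250 bases before the RefSeq start (GRCm38.p6) were available for 5 genes and are printed to show where they match, or do not match, the motifs of NF-kB and of the interferon response. Capitals mark matches, on either strand, to the NF-kB consensus and to the core of the interferon-stimulated response element (TTTC, any 2 bases, TTTC). The gamma-activated site TTCNNNGAA, which 7.02% of promoter windows hold, had no match in any of the 5. The sequences run 5′ to 3′ on the gene's own strand, with Cxcl10 on the minus strand.
Ccl20, chr1:83116516-83116765: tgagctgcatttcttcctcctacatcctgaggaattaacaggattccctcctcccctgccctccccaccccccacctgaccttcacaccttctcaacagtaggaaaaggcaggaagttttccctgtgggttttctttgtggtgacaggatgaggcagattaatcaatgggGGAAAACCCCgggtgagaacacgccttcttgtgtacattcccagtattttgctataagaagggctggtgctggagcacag
Cxcl1, chr5:90890995-90891244: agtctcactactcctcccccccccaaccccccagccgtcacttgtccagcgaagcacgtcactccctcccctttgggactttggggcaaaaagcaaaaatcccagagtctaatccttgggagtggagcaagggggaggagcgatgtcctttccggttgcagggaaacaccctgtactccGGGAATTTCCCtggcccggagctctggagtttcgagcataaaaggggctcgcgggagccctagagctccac
Cxcl2, chr5:90903649-90903898: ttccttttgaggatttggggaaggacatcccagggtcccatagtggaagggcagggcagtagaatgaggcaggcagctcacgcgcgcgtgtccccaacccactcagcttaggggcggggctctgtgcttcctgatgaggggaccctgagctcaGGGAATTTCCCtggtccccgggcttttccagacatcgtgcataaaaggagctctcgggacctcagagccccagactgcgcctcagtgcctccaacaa
Cxcl10, chr5:92348890-92349139: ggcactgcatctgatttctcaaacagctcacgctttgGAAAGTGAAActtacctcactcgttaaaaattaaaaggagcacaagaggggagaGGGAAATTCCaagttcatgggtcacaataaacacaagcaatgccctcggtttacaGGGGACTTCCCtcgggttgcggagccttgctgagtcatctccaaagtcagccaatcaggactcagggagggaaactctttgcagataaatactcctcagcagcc
Cxcl12, chr6:117168285-117168534: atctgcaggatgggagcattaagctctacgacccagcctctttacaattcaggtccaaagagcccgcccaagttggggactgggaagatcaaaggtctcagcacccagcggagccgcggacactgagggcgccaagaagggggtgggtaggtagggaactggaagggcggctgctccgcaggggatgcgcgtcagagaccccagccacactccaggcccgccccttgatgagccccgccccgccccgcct

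Cxcl1 and Cxcl2 carry the same 11 capital letters, an overlapping pair of NF-kB matches, 71 to 61 bases before the start of Cxcl1 and 97 to 87 before that of Cxcl2. Ccl20 has 1 match, 80 to 71 bases before its start. Cxcl10 has 3 NF-kB matches, of which 2 overlap, and the only interferon-element match of the 5 genes, 213 to 204 bases before its start. Cxcl12 has neither. Among 32851 mouse promoter windows of the same length, 7.25% hold an NF-kB match and 2.98% an interferon-element match. These are matches of letters only.

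In DMSO the chemokines covered a wide range of levels. Cxcl5 was the most abundant at 7852 ± 663 TPM (SD, n = 6), ahead of Ccl2 at 4659 ± 275 TPM, Ccl5 at 3666 ± 476 TPM, Ccl7 at 2093 ± 123 TPM, Cxcl1 at 1423 ± 51.3 TPM and Cxcl12 at 914 ± 69.8 TPM. The other 4 genes were far lower, with Ccl20 at 79.9 ± 13.9 TPM, Cxcl2 at 22.7 ± 2.32 TPM, Cxcl10 at 14.1 ± 4.18 TPM and Cxcl11 at 2.86 ± 0.972 TPM. Together the 10 genes made up 2.07% of all transcripts in DMSO, 1.84% to 1.98% with Antimycin A, Dihydrorotenone, Diphenyleneiodonium Cl, BerberineA and Clofilium tosylate, 1.54% with Podofilox, and 0.26% with Cardamonin and with AEG 3482. The plot of levels by library shows each of these values.

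**Figure D1:**
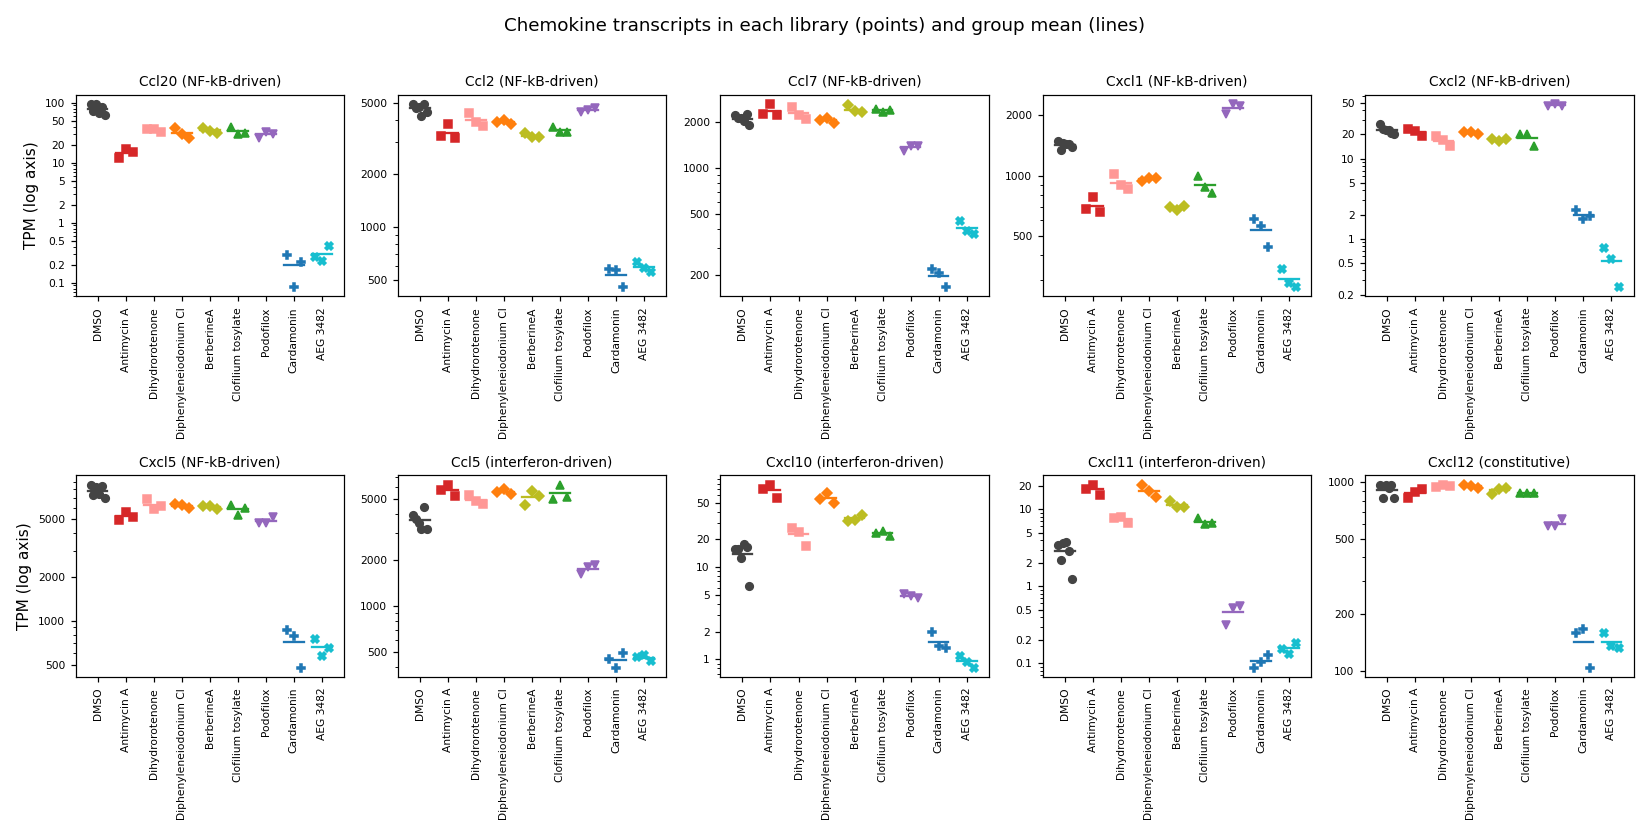
Level of each chemokine (TPM, log axis) in each of the 30 libraries (points) by group, with a line at the group mean. Cardamonin and AEG 3482 libraries are the lowest for all 10 genes; Cxcl10 and Cxcl11 have their highest libraries with Antimycin A (up to 78.6 and 21 TPM), and Cxcl1 and Cxcl2 with Podofilox (up to 2279 and 48.2 TPM).

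Against DMSO, the 8 compounds fell into 3 patterns across the 9 tested chemokines. With Cardamonin and AEG 3482 all 9 fell and none rose, where 33.0% and 26.8% of the 13644 genes tested fell and 37.3% and 41.3% rose. With Podofilox 6 fell, where 20% of all genes fell, and 2 rose (Cxcl1 and Cxcl2), where 26.2% rose. With the other 5 compounds the 3 interferon-driven genes rose and 3 or 4 of the 5 tested NF-kB-driven genes fell. The counts were 3 higher and 3 lower with Antimycin A (21.8% and 15.5% of all genes), Dihydrorotenone (4.95% and 9.43%) and Diphenyleneiodonium Cl (14.0% and 11.7%), and 3 higher and 4 lower with BerberineA (12.6% and 9.16%) and Clofilium tosylate (10.9% and 12.5%). These calls are from limma on log2(TPM + 1) at an adjusted p below 0.05, and the 8 comparisons share the DMSO libraries. Scaling moved the share of higher calls among all calls by over 10 percentage points with 3 compounds: under median-ratio scaling it was 50.7% with Dihydrorotenone in place of 34.4%, 49.4% with AEG 3482 in place of 60.7%, and 47.7% with BerberineA in place of 57.9%.

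Below, a group is called above or under DMSO where none of its libraries overlaps the DMSO range. Of all genes, 18.0% lay wholly above and 13% wholly below DMSO with Antimycin A, 4.99% and 9.87% with Dihydrorotenone, 13.3% and 11.3% with Diphenyleneiodonium Cl, and 10.5% and 8.56% with BerberineA. The shares were 9.56% and 11.2% with Clofilium tosylate, 32.9% and 28.7% with Cardamonin, 36.1% and 22.8% with AEG 3482, and 21.7% and 16.7% with Podofilox.

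**Figure D2:**
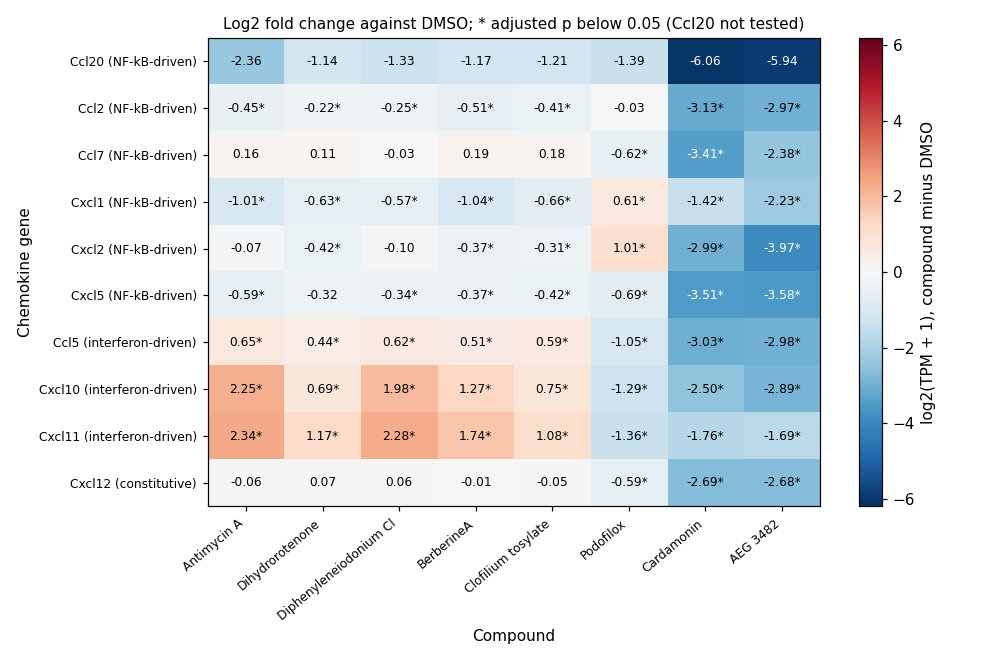
Log2 fold change of each chemokine (rows) with each compound (columns) against DMSO, on the log2(TPM + 1) scale, with red for higher and blue for lower; an asterisk marks an adjusted p below 0.05, and Ccl20 was not tested. The 3 interferon-driven rows are red for 5 compounds and blue for Podofilox, Cardamonin and AEG 3482, and Ccl20 is blue in every column, from -1.14 to -6.06.

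Ccl20 draws Ccr6-bearing dendritic cells and T helper 17 cells to barrier tissue. Its 6 DMSO libraries were at 95.5, 72.7, 94.2, 68.6, 85.7 and 62.7 TPM. All 24 treated libraries lay under that range, the highest at 39.5 TPM (Clofilium tosylate). The Antimycin A libraries were at 12.0, 17.2 and 14.9 TPM, a log2 fold change of -2.36 (SE 0.13). Dihydrorotenone gave 36.7, 36.4 and 32.9 TPM, BerberineA 38, 34.4 and 31.5 TPM, and Clofilium tosylate 39.5, 30.3 and 31.5 TPM. Diphenyleneiodonium Cl libraries were at 37.3, 29.8 and 26.2 TPM and Podofilox libraries at 26.0, 32.9 and 29.9 TPM. In order of their means each of these 5 groups overlapped the next, with means of 29.6 to 35.3 TPM and log2 fold changes of -1.14 to -1.39. Transcripts all but disappeared with Cardamonin, at 0.29, 0.08 and 0.22 TPM, and with AEG 3482, at 0.27, 0.23 and 0.41 TPM. Against the DMSO mean these were changes of -99.8% and -99.6%. On the log2 scale they were -6.06 and -5.94, values that the pseudocount moves (-4.01 to -8.12 and -3.98 to -7.64 over the alternatives).

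The choice of Ccl20 fixes its direction, so nothing is read from its place among other genes. As a description, 148 of the 13644 tested genes (1.08%) had every treated library of all 8 compounds below the DMSO range, Ccl20 among them. Cxcl5 was the only other chemokine of the 10 among the 148. A lower mean with all 8 compounds, without the condition on single libraries, was met by 8.08% of genes.

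Ccl2 and Ccl7, neighbours that attract monocytes through Ccr2, did not move alike. Ccl2 fell with 7 compounds, by 0.22 to 0.51 on the log2 scale with the 5 compounds that raised the interferon-driven genes, by 3.13 with Cardamonin and by 2.97 with AEG 3482 (SE 0.07). Its 6 DMSO libraries ran from 4221 to 4938 TPM with a median of 4717 TPM, and the BerberineA libraries, with the lowest mean of those 5 compounds, were at 3363, 3212 and 3229 TPM. Cardamonin took Ccl2 to 575, 571 and 457 TPM and AEG 3482 to 638, 586 and 559 TPM. In Podofilox it stayed within the DMSO range at 4431, 4569 and 4672 TPM, a log2 fold change of -0.03 with an approximate 95% interval of -0.17 to 0.11. The call with Dihydrorotenone (4391, 3897 and 3691 TPM, adjusted p = 0.0308) was lost in 8 of 19 alternatives, over which the adjusted p ran from 0.000179 to 0.181, among them leaving out Dihydrorotenone replicate 2 or 3 or DMSO replicate 1, 3 or 5.

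Ccl7 fell with only 3 of the 8 compounds. Its DMSO libraries ran from 1898 to 2227 TPM. Cardamonin took it to 220, 207 and 166 TPM (log2 fold change -3.41, SE 0.08, adjusted p = 2.39e-22), AEG 3482 to 450, 387 and 370 TPM (-2.38, adjusted p = 5e-19) and Podofilox to 1294, 1390 and 1392 TPM (-0.62, adjusted p = 2.42e-07). With the 5 other compounds no call was made, and fold changes ran from -0.03 with Diphenyleneiodonium Cl to 0.19 with BerberineA. All BerberineA libraries (2550, 2332 and 2299 TPM) and all Clofilium tosylate libraries (2429, 2306 and 2390 TPM) were above the DMSO range, at adjusted p of 0.0723 and 0.0846. Under quantile normalization Ccl7 was called higher with Antimycin A (0.42), Clofilium tosylate (0.27) and BerberineA (0.23), where adjusted p ran over the alternatives from 0.000228 to 0.467, 0.0175 to 0.21 and 0.0468 to 0.265.

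The neutrophil attractants Cxcl1, Cxcl2 and Cxcl5 bind Cxcr2. Cxcl1 changed with all 8 compounds, up with Podofilox and down with the rest. Its DMSO libraries ran from 1336 to 1480 TPM with a median of 1441 TPM. Podofilox raised it to 2018, 2279 and 2223 TPM, wholly above DMSO, a log2 fold change of 0.61 (SE 0.08, adjusted p = 8.78e-07). The 7 other compounds lowered it, least with Diphenyleneiodonium Cl (934, 975 and 972 TPM, -0.57, adjusted p = 8.54e-06), more with BerberineA (698, 674 and 707 TPM, -1.04, adjusted p = 2.6e-09) and Antimycin A (684, 780 and 658 TPM, -1.01, adjusted p = 3.55e-10). AEG 3482 gave 343, 291 and 277 TPM (-2.23) and Cardamonin 609, 558 and 442 TPM (-1.42). None of these libraries reached the DMSO range, and none of the 8 calls was lost in any of its 19 alternatives.

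Cxcl2, far less abundant than Cxcl1 in DMSO, rose with Podofilox as well. Its DMSO libraries were at 26.9, 23.4, 22.5, 22.4, 20.7 and 20.4 TPM and its Podofilox libraries at 45.9, 48.2 and 45.7 TPM, a log2 fold change of 1.01 (SE 0.11, adjusted p = 2.07e-08). It fell to 2.28, 1.77 and 1.90 TPM with Cardamonin (-2.99) and to 0.76, 0.55 and 0.25 TPM with AEG 3482 (-3.97). Smaller falls were called with Dihydrorotenone (-0.42, adjusted p = 0.00912), BerberineA (-0.37, adjusted p = 0.0129) and Clofilium tosylate (-0.31, adjusted p = 0.0368), and none with Antimycin A (-0.07, interval -0.28 to 0.14) or Diphenyleneiodonium Cl (-0.10, interval -0.30 to 0.11). These 3 smaller falls depend on single libraries. Without Dihydrorotenone replicate 3, without BerberineA replicate 2, or without Clofilium tosylate replicate 3 (14.4 TPM beside 20.1 and 20.3 TPM) or DMSO replicate 1, 2 or 3, the respective call was lost, and all 3 were lost with a pseudocount of 0.1. Adjusted p ran over the alternatives up to 0.0899 with Dihydrorotenone, 0.112 with BerberineA and 0.365 with Clofilium tosylate, where the fold change without its replicate 3 was -0.16.

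Cxcl5, the most abundant of the chemokines in DMSO, was below the DMSO range in every treated library. DMSO libraries ran from 7038 to 8632 TPM, and the highest treated library was at 6853 TPM (Dihydrorotenone replicate 1). Cardamonin gave 871, 785 and 474 TPM (-3.51, SE 0.12, adjusted p = 8.61e-19) and AEG 3482 gave 749, 575 and 647 TPM (-3.58, adjusted p = 1.12e-18). Unlike Cxcl1 and Cxcl2, Cxcl5 fell with Podofilox, to 4673, 4684 and 5168 TPM (-0.69, adjusted p = 3.05e-05). Antimycin A lowered it to 4945, 5555 and 5154 TPM (-0.59, adjusted p = 0.000326).

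Falls of Cxcl5 with Diphenyleneiodonium Cl (-0.34, adjusted p = 0.0364), BerberineA (-0.37, adjusted p = 0.0249) and Clofilium tosylate (-0.42, adjusted p = 0.0112) were close to the threshold, and with Dihydrorotenone (-0.32, adjusted p = 0.0748, interval -0.55 to -0.09) no call was made. Leaving out any 1 of the Diphenyleneiodonium Cl libraries, any 1 of the BerberineA libraries, DMSO replicate 1, 3 or 5 (Diphenyleneiodonium Cl), or Clofilium tosylate replicate 2 ended the respective call. Over the alternatives adjusted p reached 0.129, 0.0945 and 0.084, and the fold changes kept within -0.58 and -0.31.

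The interferon-driven genes rose where Cxcl1 fell with 5 of the compounds, and fell where Cxcl1 rose with Podofilox. Cxcl10 was at 15.8, 15.7, 12.6, 17.7, 16.4 and 6.28 TPM in DMSO. It rose to 70.0, 78.6 and 55.9 TPM with Antimycin A, a log2 fold change of 2.25 (SE 0.20, adjusted p = 1.19e-09), and to 55.3, 64.1 and 49.4 TPM with Diphenyleneiodonium Cl (1.98, adjusted p = 2.9e-08). BerberineA gave 31.4, 32.7 and 37.1 TPM (1.27, adjusted p = 2.82e-05) and Clofilium tosylate 23.4, 24.6 and 21.9 TPM (0.75, adjusted p = 0.00589). These 4 groups lay wholly above DMSO. Dihydrorotenone, with 26.6, 24.3 and 17.2 TPM, overlapped it (0.69, adjusted p = 0.0171).

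Cxcl10 fell with the 3 remaining compounds. Podofilox took it to 5.16, 4.86 and 4.68 TPM (-1.29, adjusted p = 5.15e-06), Cardamonin to 1.96, 1.40 and 1.32 TPM (-2.50, adjusted p = 1.49e-11) and AEG 3482 to 1.10, 0.95 and 0.81 TPM (-2.89, adjusted p = 1.42e-12). DMSO replicate 6 was the lowest of its group for Cxcl10 and Cxcl11, and also for Ccl20, Ccl7, Cxcl2, Cxcl5, Ccl5 and Cxcl12. It sets the lower end of the DMSO range for these genes, but not for Ccl2 or Cxcl1. Without it the Cxcl10 fold change was 2.05 with Antimycin A, 0.50 with Dihydrorotenone and -1.49 with Podofilox. Each stayed on the same side of the threshold. The Dihydrorotenone call was lost in 3 of 19 alternatives (adjusted p from 0.00216 to 0.14), among them without Dihydrorotenone replicate 1 or 2, and the Clofilium tosylate call in 1 (0.000389 to 0.0616), a fit of that compound and DMSO alone.

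Cxcl11, the other Cxcr3 ligand of the set, followed Cxcl10 at a lower level. DMSO libraries ran from 1.25 to 3.73 TPM. Antimycin A gave 18.1, 21 and 15.3 TPM (2.34, SE 0.16, adjusted p = 2.71e-11), Diphenyleneiodonium Cl 20.6, 17.3 and 14.3 TPM (2.28, adjusted p = 1.93e-10), and BerberineA 12.8, 10.9 and 10.8 TPM (1.74, adjusted p = 3.28e-08). Dihydrorotenone (1.17) and Clofilium tosylate (1.08) libraries lay between 6.36 and 8.03 TPM, all above DMSO. Podofilox left 0.31 to 0.55 TPM, AEG 3482 0.13 to 0.18 TPM and Cardamonin 0.09 to 0.13 TPM, all 3 wholly below DMSO. At these levels the fold change turns on the pseudocount, and with Cardamonin it ran from -0.61 to -3.76 over the alternatives, called in each.

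Ccl5, which draws T cells, monocytes and eosinophils, had the same 5 rises and 3 falls at a much higher level. DMSO libraries ran from 3180 to 4436 TPM with a median of 3610 TPM. Antimycin A gave 5733, 6249 and 5230 TPM (0.65, SE 0.09, adjusted p = 4.24e-06), Diphenyleneiodonium Cl 5557, 5835 and 5407 TPM (0.62, adjusted p = 1.7e-05) and Clofilium tosylate 5016, 6247 and 5205 TPM (0.59, adjusted p = 4.55e-05). Fold changes were 0.51 with BerberineA (adjusted p = 0.000271) and 0.44 with Dihydrorotenone (adjusted p = 0.00221). All 15 libraries of these 5 compounds were above the DMSO range. Podofilox lowered Ccl5 to 1619, 1802 and 1857 TPM (-1.05, adjusted p = 1.15e-09), Cardamonin to 450, 395 and 493 TPM (-3.03, adjusted p = 1.31e-19) and AEG 3482 to 462, 483 and 437 TPM (-2.98, adjusted p = 3.44e-19). None of the 8 calls was lost in an alternative.

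Cxcl12 was not called with the 5 compounds that raised the interferon-driven genes. DMSO libraries ran from 822 to 971 TPM, and the 15 libraries of those compounds from 829 to 971 TPM. Fold changes were -0.06 to 0.07, with approximate 95% intervals that together ran from -0.24 to 0.25. Podofilox lowered it to 588, 588 and 638 TPM (-0.59, SE 0.09, adjusted p = 8.99e-06). With Cardamonin it was at 159, 167 and 104 TPM (-2.69, adjusted p = 1.17e-18) and with AEG 3482 at 159, 136 and 132 TPM (-2.68, adjusted p = 2.52e-18), so that the loss with these compounds reached the constitutive gene too. The summed fibroblast markers were at 14046 to 16830 TPM in DMSO. They lay wholly below that with Cardamonin (6163 to 8029 TPM), Antimycin A (10678 to 11990 TPM), Clofilium tosylate (12281 to 13117 TPM), BerberineA (12688 to 14006 TPM), Podofilox (13073 to 13933 TPM) and Diphenyleneiodonium Cl (13214 to 13902 TPM). Dihydrorotenone (12446 to 14390 TPM) and AEG 3482 (14691 to 16807 TPM) overlapped DMSO; the part of this in the chemokine values was not tested.

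The sets can be compared within a library by subtracting the mean log2(TPM + 1) of Ccl2, Ccl7, Cxcl1, Cxcl2 and Cxcl5 from that of Ccl5, Cxcl10 and Cxcl11. The difference was -4.38 ± 0.27 (SD, n = 6) in DMSO, with replicate 6 at -4.91 and the other libraries from -4.35 to -4.14. It was -2.24 ± 0.10 with Antimycin A, -2.49 ± 0.11 with Diphenyleneiodonium Cl, -2.79 ± 0.07 with BerberineA, -3.25 ± 0.08 with Clofilium tosylate and -3.31 ± 0.10 with Dihydrorotenone (n = 3 each). With Cardamonin (-3.92 ± 0.24) and AEG 3482 (-3.87 ± 0.12) it also lay above DMSO, here with both sets lower. This is not read as a smaller loss of the interferon-driven set. Mean levels of Cxcl10 (1.56 and 0.95 TPM) and Cxcl11 (0.11 and 0.16 TPM) were so low there that the pseudocount limits their falls. The difference under other pseudocounts was not tested. With Podofilox the difference was -5.66 ± 0.01, below every DMSO library. The plot of the sets against each other shows 3 places: 5 compounds above DMSO, Podofilox beneath it, and Cardamonin with AEG 3482 at the lower left.

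**Figure D3:**
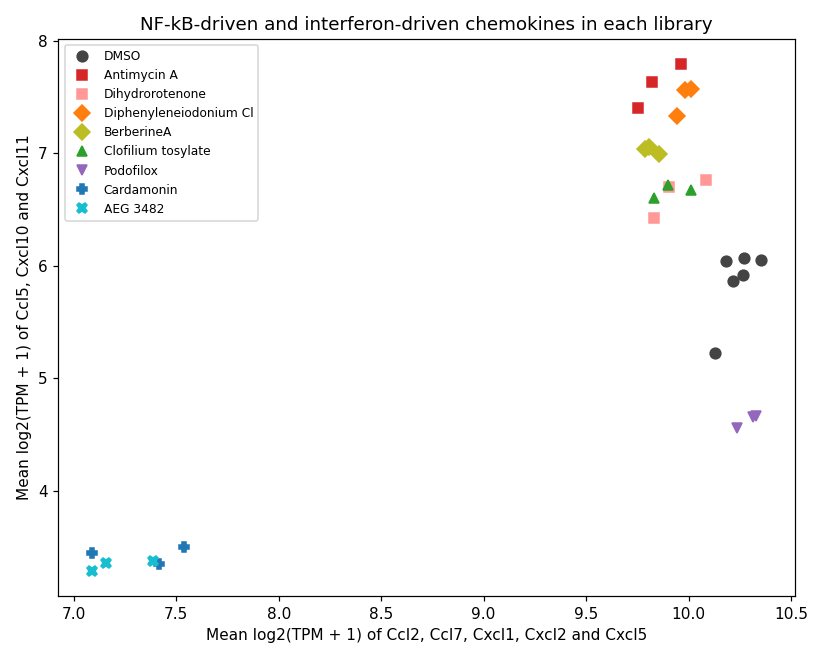
Mean log2(TPM + 1) of the interferon-driven chemokines (vertical axis) against that of the NF-kB-driven chemokines without Ccl20 (horizontal axis), 1 point per library. Podofilox libraries are at 4.56 to 4.67 vertically and DMSO libraries at 5.22 to 6.07, at overlapping horizontal positions, while Cardamonin and AEG 3482 reach at most 3.50 vertically and 7.54 horizontally.

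The compounds were also compared with each other in 28 contrasts, in which 166 of 252 chemokine comparisons were called, beside 38.7% of all gene comparisons. Most calls set Podofilox, Cardamonin or AEG 3482 against the rest. All 9 chemokines differed between Cardamonin or AEG 3482 and each of the 5 compounds that raised the interferon-driven genes. The share of all genes called with Cardamonin was 64.2% against Antimycin A, 67.1% against Dihydrorotenone, 65.4% against Diphenyleneiodonium Cl, 65.5% against BerberineA and 65.1% against Clofilium tosylate. With AEG 3482 it was 64.4%, 65.4%, 64.3%, 63.9% and 64.4% in the same order. Podofilox differed in all 9 from Diphenyleneiodonium Cl (42.7% of genes) and in 8 from Antimycin A (41.4%), Dihydrorotenone (45.2%), BerberineA (42.6%), Clofilium tosylate (39.1%), Cardamonin (57.8%) and AEG 3482 (60.3%). Among those 5 compounds, the 10 pairs gave 0 to 3 calls, and only Cxcl1, Cxcl10 and Cxcl11 were ever called.

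**Figure D4:**
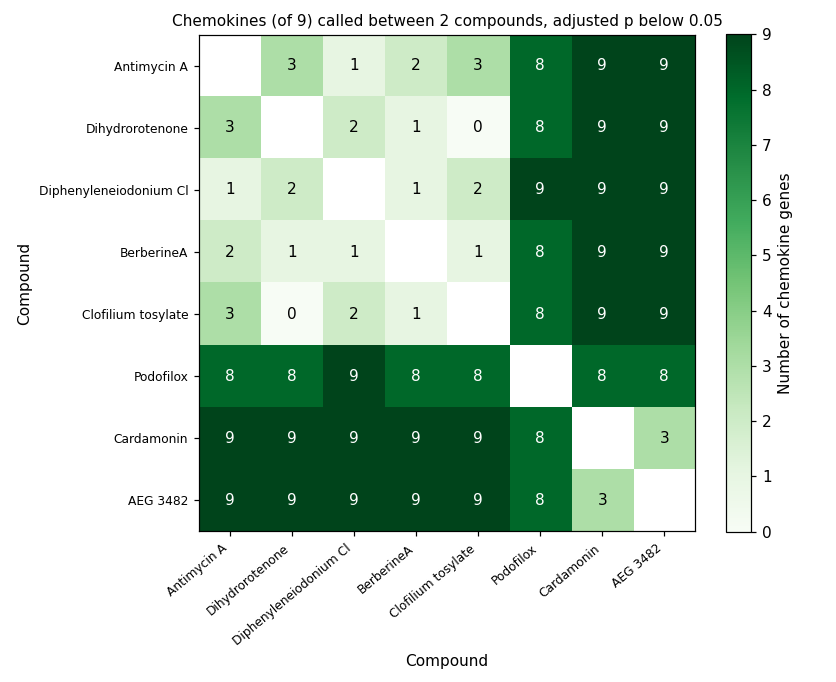
Number of the 9 tested chemokines called between each pair of compounds (limma, adjusted p below 0.05). Pairs among Antimycin A, Dihydrorotenone, Diphenyleneiodonium Cl, BerberineA and Clofilium tosylate have 0 to 3 calls, Cardamonin and AEG 3482 have 3 between them, and all other pairs have 8 or 9.

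Antimycin A and Dihydrorotenone, which block different complexes of the respiratory chain, differed in 3 chemokines, where 15.5% of genes differed. Cxcl10 was higher with Antimycin A by 1.55 (SE 0.22, adjusted p = 2.24e-05), Cxcl11 by 1.17 (SE 0.19, adjusted p = 7.98e-05), and Cxcl1 was lower by a log2 difference of -0.38 (SE 0.09, adjusted p = 0.00581). Antimycin A and Diphenyleneiodonium Cl differed in Cxcl1 alone (-0.44, adjusted p = 0.00435, where 6.04% of genes differed), with a difference of 0.27 for Cxcl10 (interval -0.17 to 0.71). Diphenyleneiodonium Cl was above Clofilium tosylate (3.15% of genes) for Cxcl10 by 1.23 and for Cxcl11 by 1.20, and Dihydrorotenone was below Diphenyleneiodonium Cl (3.68% of genes) by log2 differences of -1.29 and -1.11. Dihydrorotenone and Clofilium tosylate gave no call among the 9 by limma (2.46% of genes were called), with intervals that ranged from -0.50 to 0.46 across the genes.

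The remaining calls among these compounds were few. Antimycin A was above BerberineA (9.04% of genes) for Cxcl10 by 0.98 and for Cxcl11 by 0.61, and differed from Clofilium tosylate (5.21% of genes) in Cxcl10 by 1.5, in Cxcl11 by 1.26 and in Cxcl1 by -0.35. Cxcl1 was higher with Dihydrorotenone than with BerberineA by 0.41 (adjusted p = 0.0301, where 1.51% of genes were called), higher with Diphenyleneiodonium Cl by 0.47 (adjusted p = 0.0162, where 0.623% were called) and lower with BerberineA than with Clofilium tosylate by a log2 difference of -0.37 (adjusted p = 0.0273, where 2.81% were called), each with an SE of 0.09. Cardamonin and AEG 3482, which otherwise shared the low state, differed in 3 genes, where 55.3% of genes differed. Ccl7 was lower with Cardamonin by a log2 difference of -1.03 (SE 0.09, adjusted p = 3.56e-10), while Cxcl1 was higher by 0.81 (adjusted p = 6.02e-08) and Cxcl2 by 0.98 (adjusted p = 2.25e-07). For Cxcl12 and Ccl5 the difference between them was -0.02 (interval -0.23 to 0.20) and -0.05 (interval -0.26 to 0.16).

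Genes that interferon induces, other than the chemokines of the set, moved with Ccl5, Cxcl10 and Cxcl11. All 18 of the list were tested. All 18 rose with Antimycin A, Diphenyleneiodonium Cl, BerberineA and Clofilium tosylate, and 15 rose with Dihydrorotenone, to be read against the percentages of all genes given above. With Cardamonin, AEG 3482 and Podofilox 17 fell and none rose. Of all genes 33.0%, 26.8% and 20% fell with these compounds, and 37.3%, 41.3% and 26.2% rose. The median log2 fold change of the list was 1.68 with Antimycin A, 1.48 with Diphenyleneiodonium Cl, 1.20 with BerberineA, 0.97 with Clofilium tosylate and 0.68 with Dihydrorotenone, and -2.33, -1.17 and -1.29 with Cardamonin, AEG 3482 and Podofilox, where the median of all genes lay between -0.03 and 0.10. Ifit3, which binds viral RNA ends together with Ifit1, rose from 120 ± 26.6 TPM in DMSO to 719 ± 90.5 TPM with Antimycin A and to 592 ± 32.3 TPM with Diphenyleneiodonium Cl. It fell to 20.2 ± 4.47 TPM with Podofilox and to 7.78 ± 2.38 TPM with Cardamonin. Cxcl9, the remaining Cxcr3 ligand, rose from 8.32 ± 2.42 TPM to 44.2 ± 4.66 TPM with Antimycin A and fell to 0.942 ± 0.249 TPM with Podofilox. Rsad2 (viperin, an antiviral enzyme) rose from 1.15 ± 0.47 TPM to 12.1 ± 2.09 TPM with Antimycin A, and Gbp2 (a guanylate-binding protein) fell from 86.4 ± 12.9 TPM to 11.5 ± 0.845 TPM with AEG 3482.

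The signalling components of the interferon pathway changed less uniformly. Of 18 listed, 14 were tested. Tyk2, at most 1.76 TPM, was not, and neither were the listed interferon genes Ifna4, Ifnb1 and Ifng. Ifna4 was listed at 0 in all 30 libraries, and Ifnb1 and Ifng reached at most 0.19 and 0.18 TPM. The list holds no other interferon gene. Irf7, the factor that amplifies type I interferon, rose from 61.6 ± 8.90 TPM in DMSO to 312 ± 18.2 TPM with Antimycin A (2.34, SE 0.13, adjusted p = 7.94e-13), to 247 ± 29.7 TPM with Diphenyleneiodonium Cl and to 124 ± 16.5 TPM with Dihydrorotenone. It fell to 16.6 ± 2.90 TPM with Podofilox and 8.29 ± 1.55 TPM with Cardamonin. In all, 6 rose and 3 fell with Antimycin A, 3 rose and 10 fell with Cardamonin, and 2 rose and 9 fell with Podofilox. The shares of all genes that rose and fell were 21.8% and 15.5%, 37.3% and 33.0%, and 26.2% and 20%, in the same order. Jak2, a kinase of the interferon-gamma receptor, fell from 56.4 ± 5.06 TPM to 17 ± 1.08 TPM with AEG 3482, where 3 of the list rose and 7 fell (41.3% and 26.8% of all genes).

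**Figure D5:**
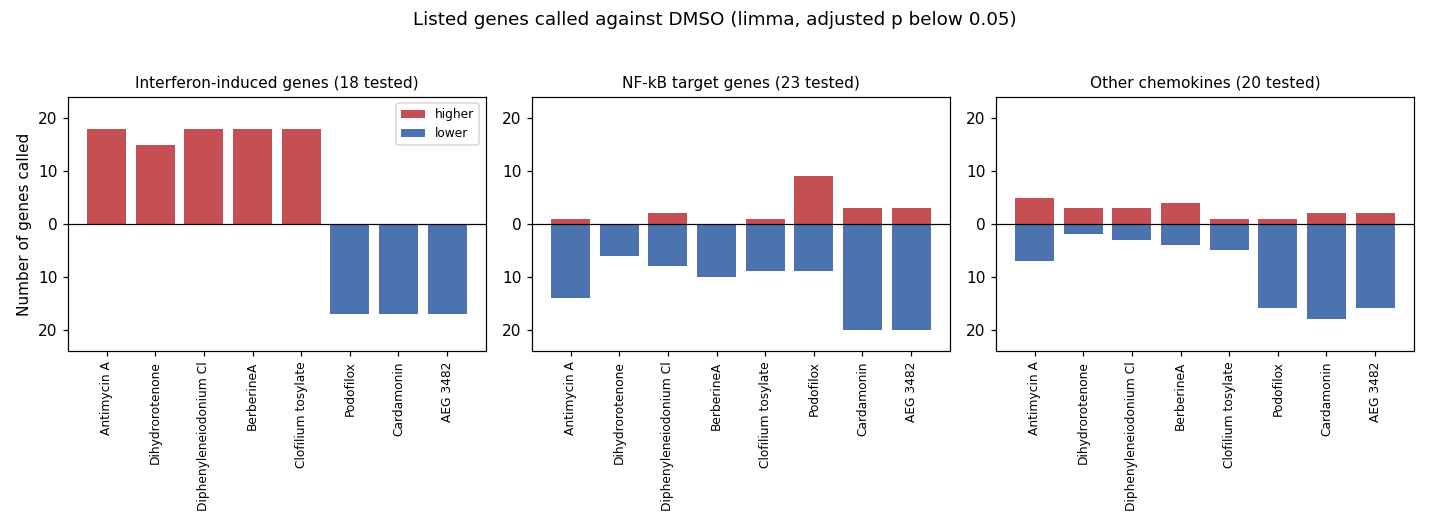
Number of genes called higher (above 0) or lower (below 0) against DMSO in 3 lists: interferon-induced genes (18 tested), NF-kB targets (23 tested) and chemokines outside the set (20 tested; Cxcl9 is in the outer 2 lists). The interferon list is called in 1 direction per compound, with 15 to 18 genes. The NF-kB targets that are called are mostly lower except with Podofilox, where 9 are higher and 9 lower. With Dihydrorotenone, Diphenyleneiodonium Cl, BerberineA and Clofilium tosylate 13 to 17 of the 23 are not called.

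NF-kB targets other than the chemokines were mostly lower or not called. Of 23 tested, 14 fell with Antimycin A, 10 with BerberineA, 9 with Clofilium tosylate, 8 with Diphenyleneiodonium Cl and 6 with Dihydrorotenone, and 0 to 2 rose. Of all genes, 15.5%, 9.16%, 12.5%, 11.7% and 9.43% fell with these compounds, and 21.8%, 12.6%, 10.9%, 14.0% and 4.95% rose. With Cardamonin and with AEG 3482 all 23 were called, 20 lower and 3 higher. Of all genes 33.0% and 26.8% fell with Cardamonin and AEG 3482, and 37.3% and 41.3% rose. Podofilox divided the list, with 9 higher and 9 lower, where 26.2% of all genes rose and 20% fell. The medians ran from -0.16 to -0.28 with the first 5 compounds, and were -1.08 with Cardamonin, -1.46 with AEG 3482 and 0.14 with Podofilox.

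Among these targets, Il6, a cytokine of the acute phase, resembled Cxcl1 and Cxcl2 with Podofilox, rising from 14.6 ± 3.25 TPM to 83.0 ± 14.4 TPM (2.44, SE 0.24, adjusted p = 4.38e-09), and fell with Antimycin A to 5.20 ± 1.77 TPM. Nos2, inducible nitric oxide synthase, rose from 62.7 ± 11.5 TPM to 276 ± 43.1 TPM with Podofilox and fell to 0.387 ± 0.288 TPM with AEG 3482. Vcam1, an adhesion molecule for leukocytes, fell from 455 ± 44.5 TPM to 33.2 ± 9.65 TPM with Cardamonin. Ptgs2, cyclooxygenase 2, went against the chemokines there, rising from 25.3 ± 3.22 TPM to 217 ± 33.7 TPM with Cardamonin (3.05, SE 0.09, adjusted p = 5.24e-20). Nfkbia, which encodes the inhibitor IkB-alpha, fell from 145 ± 4.91 TPM to 101 ± 6.71 TPM with Clofilium tosylate (-0.53, adjusted p = 2.02e-08).

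Upstream components of NF-kB signalling showed no common direction. Of 23 tested, 11 rose and 11 fell with Cardamonin and likewise with AEG 3482, and 7 rose and 5 fell with Antimycin A. Of all genes 37.3% rose and 33.0% fell with Cardamonin, 41.3% and 26.8% with AEG 3482, and 21.8% and 15.5% with Antimycin A. Tlr2, a receptor for bacterial lipoproteins, rose from 114 ± 8.84 TPM to 199 ± 5.88 TPM with Antimycin A and fell to 8.99 ± 0.71 TPM with AEG 3482. Il1r1, the signalling receptor of interleukin-1, fell from 154 ± 9.30 TPM to 89.1 ± 5.58 TPM with Antimycin A, to 23.1 ± 8.13 TPM with Cardamonin and to 68.9 ± 7.85 TPM with AEG 3482. Ikbkg, the regulatory subunit of the IkB kinase, rose from 81.4 ± 13.2 TPM to 229 ± 6.93 TPM with Cardamonin.

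Proteins that bind chemokine messages and set their decay were tested for 8 genes. None rose and at most 1 fell with the 5 compounds that raised the interferon-driven genes, while 4 rose and 3 fell with Cardamonin, 3 rose and 3 fell with AEG 3482, and 3 rose and 1 fell with Podofilox. The shares of all genes called were 37.3% higher and 33.0% lower with Cardamonin, 41.3% and 26.8% with AEG 3482, and 26.2% and 20% with Podofilox. With the 5 compounds that raised the interferon-driven genes, 4.95% to 21.8% of all genes rose and 9.16% to 15.5% fell. Few calls among 8 genes are therefore not read as a contrast between compounds. Zfp36l1, which promotes decay of messages with AU-rich elements, fell from 238 ± 18.9 TPM to 88.1 ± 15.6 TPM with Cardamonin. Zc3h12a (Regnase-1, an endonuclease that cuts inflammatory messages) fell from 67.5 ± 3.83 TPM to 26.5 ± 1.41 TPM with AEG 3482. Zfp36l2 fell from 127 ± 7.53 TPM to 59.4 ± 2.91 TPM with Podofilox.

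The receptors for these ligands were nearly silent in the fibroblasts. Of 23 receptor genes, 5 passed the filter on low values. Ccr6, the receptor of Ccl20, reached at most 0.08 TPM and was listed at 0 in 25 of 30 libraries, and Cxcr3 at most 0.08 TPM. Ackr3, an atypical receptor that takes up Cxcl12 and Cxcl11, was the only abundant one, at 51.5 ± 5.69 TPM in DMSO. It fell to 14.3 ± 3.91 TPM with Cardamonin, 25.5 ± 2.20 TPM with AEG 3482 and 26.2 ± 1.78 TPM with Antimycin A, and its fall with Diphenyleneiodonium Cl (38.5 ± 4.99 TPM, adjusted p = 0.0128) was lost without replicate 1 of that compound.

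Chemokines outside the set repeated the loss with 3 compounds. Of 27 listed, 20 were tested, and 18 fell and 2 rose with Cardamonin, 16 fell and 2 rose with AEG 3482, and 16 fell and 1 rose with Podofilox. Of all genes 33.0%, 26.8% and 20% fell and 37.3%, 41.3% and 26.2% rose. Ccl11 (eotaxin) fell from 20.7 ± 1.81 TPM to 0.455 ± 0.339 TPM with Cardamonin, 0.615 ± 0.316 TPM with AEG 3482 and 1.94 ± 0.26 TPM with Podofilox. Ccl9 fell from 32.5 ± 2.73 TPM to 0.997 ± 0.136 TPM with Cardamonin, 2.01 ± 0.154 TPM with AEG 3482 and 4.71 ± 1.34 TPM with Podofilox. Ccl12, a further Ccr2 ligand, rose from 4.21 ± 1.16 TPM to 12.6 ± 1.46 TPM with Antimycin A, where 5 of the 20 rose and 7 fell (21.8% and 15.5% of all genes).

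The genes most like 3 of the chemokines were found by Pearson correlation of log2(TPM + 1) over the 9 group means, among 10492 genes with a group mean of at least 5 TPM. For Ccl20 they were Tmem176b, Birc3, Trf, B3galnt1 and Scp2, with r from 0.986 to 0.992, and Birc3 belongs to the NF-kB target list. For Cxcl10 they were Mndal, Ifi203, Ifi205, Slfn9 and Ttc3 (r from 0.988 to 0.995), beside Cxcl11 (0.98) and Ccl5 (0.95). For Cxcl12 they were Vegfc, Serpina3f, Dclk1, Isoc1 and Gpam (r from 0.995 to 0.998). Within the set, Ccl20 was closest to Cxcl5 (0.98), Ccl2 (0.97) and the constitutive Cxcl12 (0.96). Ccl7 (0.93), Cxcl2 (0.91), Ccl5 (0.88), Cxcl1 (0.77), Cxcl10 (0.72) and Cxcl11 (0.62) followed. This order did not separate the genes by inducer, and it rests on the values by which Ccl20 was chosen. Cxcl10 was least close to Cxcl1 (0.31). These values describe 9 means that share 1 line and a DMSO group, in which Cardamonin and AEG 3482 stand far below the rest.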

How the data were processed

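RNA from 30 libraries (8 compounds with 3 each, DMSO with 6) was sequenced after ribosomal RNA depletion. The deposited values are TPM (transcripts per 1000000) per Ensembl gene. The authors made them with kallisto 0.43.1, per the submitters' processing notes; the transcript index and annotation release are not given in the sources used here. Depth is unknown. Of 29861 genes, 29426 matched GENCODE M21 by identifier. The members and lists were chosen with earlier results of these data known.

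The 13644 genes that reached 1 TPM in 3 or more libraries were fitted with limma 3.58.1 in R 4.3.3 on log2(TPM + 1), with an intensity trend, 1 mean per group and Benjamini-Hochberg adjustment within each contrast at 0.05. So a fold change understates that of low genes. Intervals are the fold change plus or minus 1.96 standard errors. The fit was tested on simulated data. From each list and compound, up to 2 called genes with the largest fold change and at least 5 TPM in the higher group were eligible to be named; others were named for a stated property (receptors, interferons, markers, genes alike in pattern). Alternatives changed the pseudocount, filter, scaling, moderation, samples fitted and replicate block. Some listed genes are not reported here.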

Additional observations from a re-analysis of the deposited data

Results flagged for a closer look

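Socs3, an inhibitor of Jak kinases on the interferon signalling list, had 1 DMSO library apart from the other 5. It stood at 113 TPM, while the next lowest was at 127 TPM and the highest at 129 TPM. It was the only 1 of 34 named list genes, and 0 of the 10 chemokines were so marked in DMSO. Chance marks about 1 in 20 groups.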

How the results depend on the processing

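Of 72 chemokine changes against DMSO (9 genes, 8 compounds), 54 kept their direction and their side of the threshold in all 19 alternatives; 9 lost a call in at least 1 and 4 gained one. Changes of sign were seen in 5 changes, none of them called: Ccl2 with Podofilox (0.021), Ccl7 with Diphenyleneiodonium Cl (0.028) and Cxcl12 with Dihydrorotenone (-0.013) under quantile normalization, Cxcl2 with Antimycin A (-0.13 to 0.010 over left-out libraries) and Cxcl12 with BerberineA (-0.042 to 0.017 likewise). Cxcl5 with Dihydrorotenone was called when that compound and DMSO were fitted alone (adjusted p = 0.0369, range to 0.246). All genes called with Dihydrorotenone numbered 1963, against 969 in the fit of that compound and DMSO alone and 1233 to 2179 with 1 library left out (1233 without Dihydrorotenone replicate 1, 1268 without replicate 2); the cause was not tested. Of 93 named list changes, 86 kept direction and side. The median of all genes with AEG 3482 was 0.10 and moved to -0.01 under median-ratio scaling.

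With the replicate number as a block, the chemokines called numbered 6, 6, 6, 9, 7, 7, 9 and 8, as without it (Antimycin A, Dihydrorotenone, Diphenyleneiodonium Cl, Cardamonin, BerberineA, Clofilium tosylate, AEG 3482, Podofilox), and calls between compounds numbered 180 in place of 166. Same-numbered libraries did not deviate together (108 correlations from -0.11 to 0.15, median 0.01). This check showed no pairing by number, but it cannot exclude that same-numbered libraries were handled together. TPM keeps no depth, so counting error at low levels, as for Cxcl11, cannot be given.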
